A study of Homo sapiens with 12 samples.

Results

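The mitotic kinase and checkpoint genes examined here were AURKA, AURKB, PLK1, CDK1, CCNB1, BUB1, TTK, BUB1B, MAD2L1 and CDC20. They were chosen by gene symbol from the 25268 symbols of the deposited table, with earlier results of these data known. All 10 were found and passed the filter on low values that left 14676 genes for testing. Every sample came from HEK293, an established human embryonic kidney cell line, grown in DMEM with fetal bovine serum. The cells were transiently transfected with 2 µg of pCMV6-HIS-HA-RBMX, a plasmid in which the CMV promoter drives a His-HA fusion of the protein. Control cells received the empty vector, and the labels call them wild type. RBMX is an RNA-binding protein related to the hnRNP splicing factors, and the study states that it can be nuclear or cytoplasmic. No selection of transfected cells is described, and the share that took up the plasmid is not given in the sources used here. Each vector had 3 cultures, described by the study as biological replicates, and all were treated with cycloheximide to hold ribosomes on the mRNA before lysis. The cleared lysate was spread on a sucrose gradient, the heavy fractions gave the polysomal RNA, and a fixed share of every fraction was pooled to give the total RNA. The labels also mention separate dishes for total and polysomal RNA, so it is not certain that libraries of both fractions with the same replicate number shared a lysate, and every difference between fractions within a culture given here rests on that reading. The 12 libraries therefore held 3 for each combination of vector and fraction.

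Values were FPKM, which divide the fragments of a gene by its length and by the mapped total of its library, so levels can be compared between genes. The depth of the libraries in fragments is unknown. RBMX itself was measured at 147, 145 and 108 FPKM in control total RNA and at 1731, 2073 and 1460.3 FPKM in total RNA of RBMX cells, higher in every library labelled as overexpressing it, although plasmid and endogenous transcripts cannot be told apart. All 7 HEK293 markers were detected in each library, and of 13 markers of other cell types only COL1A1 passed the filter. In these bulk samples, fewer cells in mitosis and less RNA per cell cannot be told apart.

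One control culture stood apart from the other control cultures. Against the mean of control cultures 1 and 2, control culture 3 had at least a 0.4 shift on the log2 scale for 20.3% of all tested genes in its total library and for 27.9% in its polysomal library. In the other 10 libraries, each set against the remaining libraries of its group, this share lay between 3.34% and 9.76%. The RBMX comparisons are therefore given with and without that culture, a choice made after seeing the data.

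These genes encode the machinery that takes a cell into mitosis and keeps it there until its chromosomes are attached. CDK1 bound to cyclin B1 starts mitosis, the Aurora and Polo kinases build the spindle and correct attachments, and the checkpoint proteins BUB1, TTK, BUB1B and MAD2L1 hold back CDC20, the activator of the anaphase-promoting complex, while any kinetochore is unattached. Transcripts of such genes are known to be low in G1 and to accumulate towards G2 and mitosis, which makes them common readouts of how many cells of a culture are dividing.

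All 10 transcripts were abundant. Ranked by mean FPKM over the 12 libraries, AURKB stood at 119, CDK1 at 118, CCNB1 at 110.5, MAD2L1 at 103, PLK1 at 92.3 and CDC20 at 87.1. AURKA followed at 51.4, BUB1 at 33.8, TTK at 32.8 and BUB1B at 26.2. Even BUB1B, the lowest, lay above 70.7% of the genes tested, and AURKB above 92.9%. The steps from CDC20 to AURKA and from AURKA to BUB1 held in 12 of 12 libraries. The order of AURKB and CDK1 did not hold beyond their spread, since AURKB was the higher in 4 of 12 libraries, nor did that of MAD2L1 and PLK1 or of BUB1 and TTK, where the first gene was the higher in 7 of 12.

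**Figure D1:**
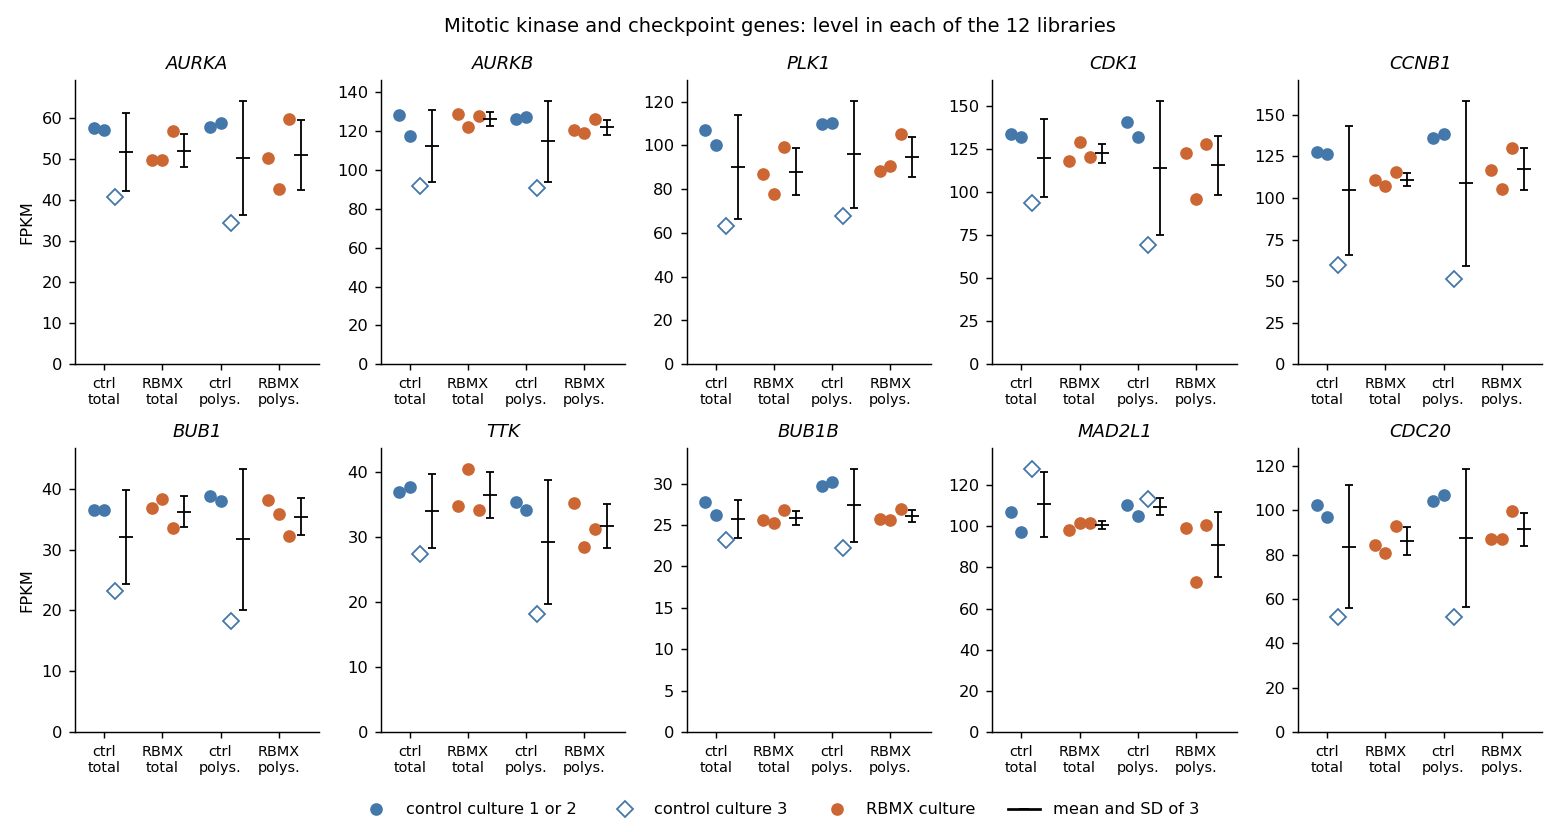
FPKM (vertical axis, from 0) of each gene in the 12 libraries, grouped by vector and fraction, with the mean and SD of 3 cultures as a bar to the right of each group. The open diamonds of control culture 3 lie below all other libraries of their fraction for 9 of the 10 genes and above them for MAD2L1.

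Of the kinases, AURKA, which matures centrosomes and assembles the spindle poles, lies on the minus strand of chromosome 20 at chr20:56369389-56392337 (GRCh38, GENCODE v29, as are all gene positions here). Its total RNA values were 57.6, 57.1 and 40.9 FPKM in control cultures 1 to 3 and 49.8, 49.7 and 56.9 FPKM in RBMX cultures 1 to 3. The polysomal values were 58.0, 58.9 and 34.4 FPKM in control and 50.5, 42.8 and 59.8 FPKM in RBMX cells. The groups overlapped in both fractions because control culture 3 lay below every RBMX culture while control cultures 1 and 2 each lay above at least 2 of the 3.

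AURKB, the catalytic subunit of the chromosomal passenger complex, lies at chr17:8204733-8210600 on the minus strand. It was measured at 128, 117 and 91.7 FPKM in control total RNA and at 129, 122 and 128 FPKM in RBMX total RNA. In polysomal RNA it reached 126, 127 and 90.8 FPKM in control and 121, 119 and 126 FPKM in RBMX cells. Apart from control culture 3, the 10 libraries stayed within 117 and 129 FPKM.

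PLK1, the Polo-like kinase that acts at centrosomes, kinetochores and in cytokinesis, lies at chr16:23677656-23690367 on the plus strand. Control total RNA held 107, 100.4 and 63.1 FPKM and RBMX total RNA 87.2, 77.9 and 99.2 FPKM. Control polysomal RNA held 109.8, 110.3 and 67.8 FPKM and RBMX polysomal RNA 88.5, 90.7 and 105 FPKM. All RBMX values fell between control culture 3 and the other control cultures in both fractions, and CDC20 shared this arrangement.

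CDK1, the cyclin-dependent kinase of mitotic entry, lies at chr10:60778331-60794852 on the plus strand. Its control values were 134, 132 and 93.6 FPKM in total and 141, 132 and 69.3 FPKM in polysomal RNA. Its RBMX values were 118, 129 and 120.3 FPKM in total and 123, 96.2 and 128 FPKM in polysomal RNA. Besides control culture 3, the polysomal library of RBMX culture 2 was low. CCNB1, the cyclin that activates CDK1, lies at chr5:69167010-69178245 on the plus strand and varied most of the 10 genes. Control cells had 128, 126 and 59.7 FPKM of it in total and 136, 139 and 51.4 FPKM in polysomal RNA. RBMX cells had 111, 107 and 115 FPKM in total and 117, 105 and 130.3 FPKM in polysomal RNA. As for PLK1, every RBMX value lay between control culture 3 and the other control cultures.

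The checkpoint kinase BUB1, which recruits the checkpoint to kinetochores, lies at chr2:110637698-110678114 on the minus strand. It stood at 36.5, 36.5 and 23.2 FPKM in control total RNA and at 36.9, 38.3 and 33.5 FPKM in RBMX total RNA. In polysomal RNA it stood at 38.8, 37.9 and 18.3 FPKM in control and at 38.1, 35.9 and 32.2 FPKM in RBMX cells. Without control culture 3 its groups lay close together. TTK, also called MPS1, the kinase that starts checkpoint signalling, lies at chr6:80003887-80042527 on the plus strand. Its total RNA values were 36.9, 37.7 and 27.4 FPKM in control and 34.8, 40.5 and 34.1 FPKM in RBMX cells, and its polysomal values 35.4, 34.1 and 18.2 FPKM in control and 35.3, 28.5 and 31.2 FPKM in RBMX cells. The polysomal libraries of control culture 3 and RBMX culture 2 were its lowest of their groups.

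BUB1B, known as BUBR1 and part of the complex that inhibits CDC20, lies at chr15:40161023-40221136 on the plus strand and varied least. It was measured at 27.7, 26.2 and 23.2 FPKM in control and at 25.5, 25.2 and 26.8 FPKM in RBMX total RNA. Polysomal RNA gave 29.7, 30.1 and 22.2 FPKM in control and 25.8, 25.6 and 26.9 FPKM in RBMX cells. Here too the RBMX values lay within the range of the control values.

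MAD2L1, which encodes MAD2, the protein that binds and blocks CDC20, lies at chr4:120055608-120067074 on the minus strand and did not follow the others. Its total RNA values were 107, 97.1 and 128 FPKM in control and 98.3, 102 and 102 FPKM in RBMX cells. Its polysomal values were 110.1, 105 and 113 FPKM in control and 99.3, 72.8 and 101 FPKM in RBMX cells. Control culture 3 was the highest of 6 libraries in both fractions, and the polysomal groups did not overlap, RBMX cells being lower. CDC20, at chr1:43358955-43363203 on the plus strand, stood at 102, 96.8 and 51.7 FPKM in control and 84.5, 80.6 and 93.1 FPKM in RBMX total RNA. In polysomal RNA it stood at 104.1, 107 and 51.8 FPKM in control and 87.1, 87.2 and 99.7 FPKM in RBMX cells. The RBMX cultures again lay between control culture 3 and the other control cultures.

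Control culture 3 thus set most of the spread of these genes. It was the lowest of the 6 libraries of its fraction for 9 of 10 genes in total RNA and for the same 9 in polysomal RNA, the exception being MAD2L1. Over all tested genes it was the lowest library for 30.3% in total and 33.1% in polysomal RNA. Against the mean of control cultures 1 and 2 on the log2(FPKM + 1) scale, CCNB1 was lower by the most, at -1.08 in total and -1.40 in polysomal RNA. In the order of total RNA, CDC20 (-0.93 and -1.01), PLK1 (-0.71 and -0.69) and BUB1 (-0.63 and -1.03) came next, followed by CDK1 (-0.50 and -0.97), AURKA (-0.48 and -0.75), TTK (-0.43 and -0.89) and AURKB (-0.42 and -0.48). In polysomal RNA BUB1 lay just below CDC20, and CDK1, TTK and AURKA lay below PLK1. BUB1B was lower by the least in both fractions (-0.21 and -0.41). MAD2L1 differed by 0.32 and 0.07. The median of the 10 genes was -0.49 in total and -0.82 in polysomal RNA, beside 0.0060 and 0.00078 over all genes tested.

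The wider mitotic gene lists were not shifted alike in this culture. Kinesins and midzone proteins, the motors and bundlers of the spindle, had median differences of -0.47 in total and -0.71 in polysomal RNA, with 11 and 12 of 12 genes lower. DNA replication genes were at -0.41 and -0.48, with 33 and 35 of 38 lower, and proliferation markers such as MKI67 and TOP2A at -0.29 and -0.49. The chromosomal passenger complex and Aurora activators were at -0.31 and -0.35 and the cyclins and CDK1 regulators at -0.33 and -0.23. The checkpoint partners were at -0.18 and -0.26. In polysomal RNA these lists lay nearer to 0 than the lists named before them. Kinetochore genes were at 0.04 and -0.16, the anaphase-promoting complex at -0.10 and 0.0034, other mitotic kinases at 0.10 and -0.15, and the G2/M transcription factors at 0.05 and 0.03. The 7 HEK293 markers, which are no cell cycle genes, were at -0.76 and -0.86.

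**Figure D2:**
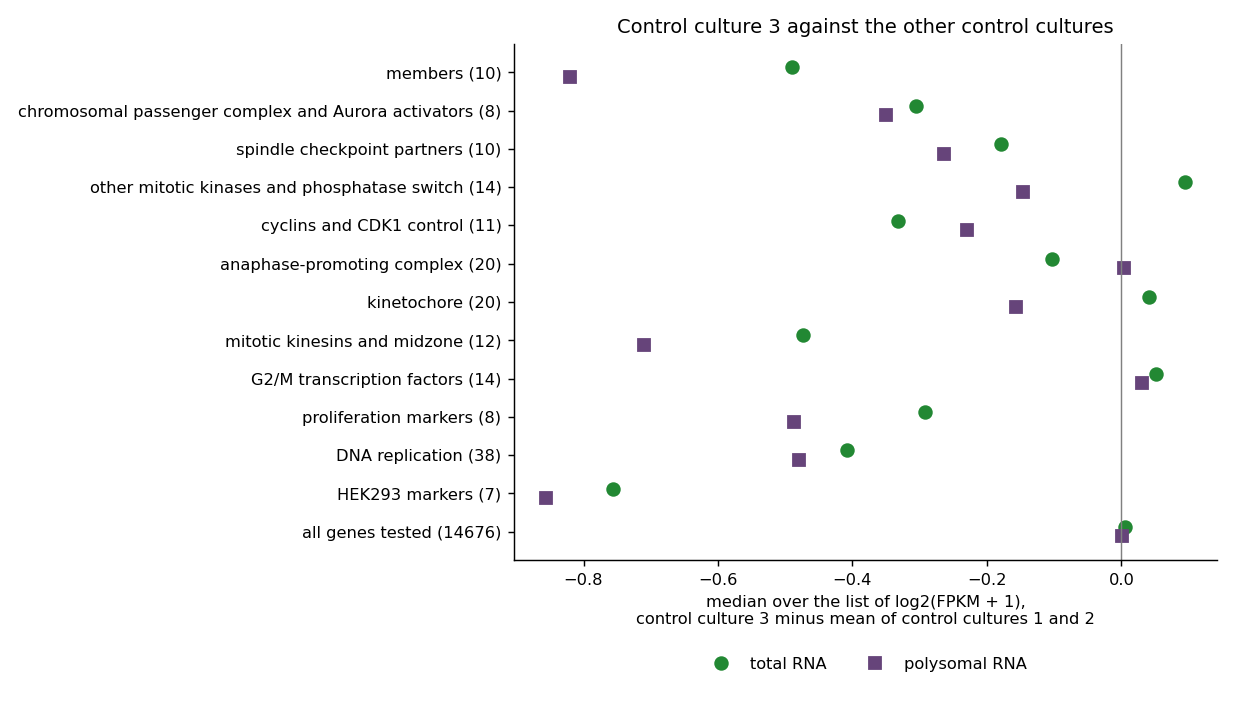
Median over each gene list of the log2(FPKM + 1) difference between control culture 3 and the mean of control cultures 1 and 2 (horizontal axis), for total RNA (circles) and polysomal RNA (squares), with the number of genes tested in parentheses. The 10 genes lie at -0.49 and -0.82 and all genes tested lie at 0.

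Other measures moved with this culture. The summed FPKM of the HEK293 markers was 438 in its total and 404 in its polysomal library and 846 to 986 in the other 10 libraries. The summed level of the 13 markers of other cell types was 3.83 and 4.93 FPKM there and 5.36 to 9.90 elsewhere, with 5 and 2 of the markers at 0 there and 2 to 7 elsewhere. Small RNA genes held 72.9% of all FPKM in its total library, the largest share of the 12, and 64.5% in its polysomal library, within a range of 40.6% to 72.9%. Over 12501 genes with an annotated coding transcript (85.2% of those tested), the culture's difference correlated with transcript length at a Spearman rho of -0.16 in total and -0.31 in polysomal RNA, and with GC content at -0.16 and 0.21. These correlations run over genes, which are not independent replicates. The part of each of these measures in the shift of the mitotic genes was not tested.

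With control culture 3 included, the 10 genes moved together across libraries, MAD2L1 excepted. Over the 12 libraries, the 36 pairs among the other 9 genes had Pearson correlations between 0.58 and 0.99 with a median of 0.88. The 9 pairs with MAD2L1 lay between -0.48 and -0.07. Over the 10 libraries that remained without control culture 3, the median of the 36 pairs was 0.47 with a range of -0.23 to 0.98, and the pairs with MAD2L1 became positive, at 0.17 to 0.93. PLK1 and CDC20 were the pair at 0.98 there. These points share gradients, vectors and culture 3, and the values are a description. Of all other tested genes, the 5 whose values followed the mean standardised profile of the 10 genes most closely were CCNA2 (r = 0.991), the cyclin of S and G2 phase, HDAC2 (0.988), a histone deacetylase, ST13 (0.986), a co-chaperone, CKAP2 (0.985), a spindle protein, and ADSS (0.985), an enzyme of adenine nucleotide synthesis. Over the 10 libraries without control culture 3 they had r of 0.950, 0.937, 0.929, 0.951 and 0.904.

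As a description, the RefSeq promoters (GRCh38.p14, from 250 bases before to 50 after each start) were searched for elements known from G2/M promoters. The table held 8 of the 10 genes, AURKA and TTK being the others. The cell cycle homology region, searched as TTTGAA or TTCGAA on both strands, was found in 6 of 8 genes, and in 16.4% of all 35116 promoters or, counted per gene symbol, 19.5% of 27305 symbols. The CCAAT box, searched as CCAAT on both strands, was found in 7 of 8 genes, and in 34.6% of promoters or 39.7% of symbols. For each of the 6 genes, the forward match nearest to the start is shown with 12 bases on each side, in capitals for the match, 5′ to 3′ on the strand of the gene, so that the shared element can be read.
PLK1: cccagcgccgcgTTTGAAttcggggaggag
BUB1: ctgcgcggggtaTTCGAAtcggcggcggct
CDK1: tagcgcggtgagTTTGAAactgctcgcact
BUB1B: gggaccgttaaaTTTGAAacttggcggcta
MAD2L1: tgcgtcgttactTTTGAAacgcttggcggg
CDC20: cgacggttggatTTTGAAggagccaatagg

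These windows lie at chr16:23678848-23678877 (plus strand, match starting 29 bases before the start) for PLK1, at chr2:110678045-110678074 (minus strand, 1 base after) for BUB1 and at chr10:60778453-60778482 (plus strand, 13 bases before) for CDK1. They lie at chr15:40161034-40161063 (plus strand, 23 bases before) for BUB1B, at chr4:120066807-120066836 (minus strand, 24 bases after) for MAD2L1 and at chr1:43358904-43358933 (plus strand, 65 bases before) for CDC20. MAD2L1 holds the element, and CCNB1 and AURKB are without these letters in the window. The part of the element in the levels of these genes was not tested. CCNB1 has CCAAT boxes starting 87 and 55 bases before its start. A match of letters is a description and was not shown to be a site in these cells.

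Overexpression of RBMX was compared with the control vector within each fraction. In total RNA, 8 of the 10 genes were higher and 2 lower in RBMX cells, with log2 fold changes between -0.13 for MAD2L1 and 0.20 for BUB1 and a median of 0.07, which quantile normalization took to -0.0064. None passed the test in limma at a Benjamini-Hochberg adjusted p of 0.05 (adjusted p from 0.496 to 0.999), where 0.164% of all tested genes passed. An unadjusted p under 0.05 in limma was found for 0 of 10, beside 18.8% of all tested genes. No gene had groups that did not overlap, against 27.3% of all tested genes in either direction. CCNB1 averaged 105 ± 38.9 FPKM in control and 111 ± 4.09 FPKM in RBMX cells (SD, n = 3 each), a log2 fold change of 0.17 with a 95% interval from -0.60 to 0.94. AURKB had a log2 fold change of 0.18 (-0.15 to 0.51), BUB1 of 0.20 (-0.27 to 0.67), CDC20 of 0.10 (-0.58 to 0.78) and PLK1 of -0.0042 (-0.56 to 0.55). The interval was narrowest for BUB1B, at 0.01 (-0.18 to 0.21), a fold of 0.881 to 1.15 on this scale.

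In polysomal RNA the picture was alike, with 8 genes higher, 2 lower and a median log2 fold change of 0.09. No gene passed (limma, adjusted p from 0.473 to 0.990), where 0.0477% of all tested genes passed. An unadjusted p under 0.05 in limma was found for 0 of 10, beside 11.7% of all tested genes. CCNB1 had the highest value at 0.24 (-0.78 to 1.26), from 109 ± 49.7 FPKM in control to 117 ± 12.4 FPKM in RBMX cells. MAD2L1 had the lowest at -0.28 (-0.64 to 0.08), from 109 ± 4.14 to 91.0 ± 15.8 FPKM, with an adjusted p of 0.473 in limma and an exact permutation p of 0.1, the smallest that 3 against 3 cultures allow. It was the 1 gene of the 10 whose RBMX values all lay below the control values, a pattern of 12.5% of all tested genes, and 72.8 FPKM in RBMX culture 2 carried most of its difference. Without that library the log2 fold change of MAD2L1 was -0.13. The intervals reach up to a fold of 1.91 in total and 2.39 in polysomal RNA, both for CCNB1, so they do not show that the levels were equal.

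Without control culture 3 the direction turned. In total RNA 9 of 10 genes were then lower in RBMX cells, with a median of -0.09, and in polysomal RNA 10 of 10, with a median of -0.21. Still no gene passed in limma, with adjusted p between 0.133 and 0.933 for total RNA and between 0.246 and 0.570 for polysomal RNA, and 2 and 1 of 10 genes had an unadjusted p under 0.05, beside 25.5% and 17.7% of all tested genes. In total RNA CCNB1 was at -0.19 (-0.32 to -0.07, adjusted p = 0.133 in limma), CDC20 at -0.21 (-0.41 to -0.01) and PLK1 at -0.24 (-0.54 to 0.06). In polysomal RNA BUB1B was at -0.19 (-0.31 to -0.07, adjusted p = 0.246 in limma), CDK1 at -0.25 (-0.64 to 0.14), MAD2L1 at -0.25 (-0.70 to 0.19) and CCNB1 at -0.23 (-0.51 to 0.05).

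The ranges of the remaining cultures come from the same libraries, so they are no separate support for this turn. In each fraction control culture 3 was the lowest library for 9 of 10 genes, so leaving it out raises their control values. The shares over all tested genes given here include genes for which it was not the lowest. In total RNA 5 of 10 genes (AURKA, PLK1, CDK1, CDC20 and CCNB1) had all 3 RBMX cultures below control cultures 1 and 2, against 26.5% of all tested genes. In polysomal RNA 7 of 10 did so (AURKB, PLK1, CDK1, BUB1B, MAD2L1, CDC20 and CCNB1), against 26.2% of all tested genes. In a fit of all 12 libraries that left out both libraries of control culture 3, which draws the spread from both fractions, the lowest adjusted p in limma was 0.166 in total and 0.0811 in polysomal RNA. Leaving out control culture 3 turned the sign of the RBMX difference for 7 genes in total RNA, all but AURKB, PLK1 and MAD2L1, and for 8 in polysomal RNA, all but BUB1B and MAD2L1. Leaving out any other single culture turned it for 0 to 2 genes in total and 0 to 3 in polysomal RNA.

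**Figure D3:**
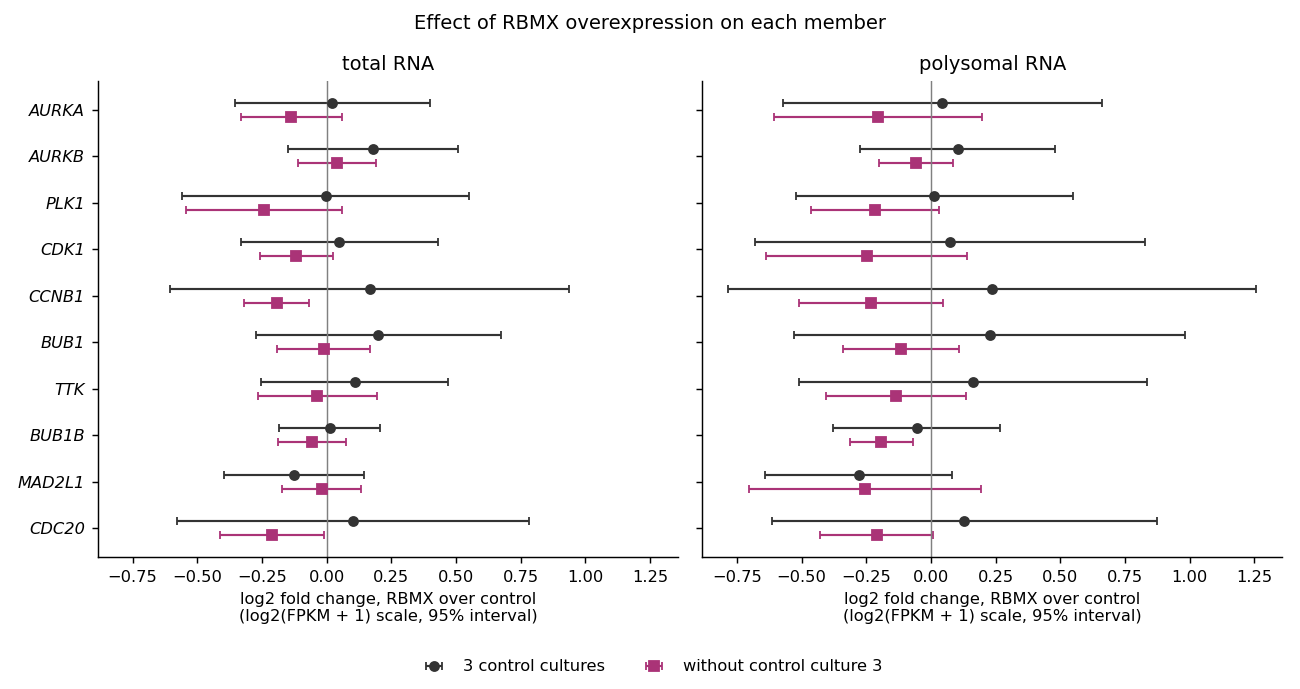
Log2 fold change of RBMX over control cells (horizontal axis, log2(FPKM + 1) scale) with its 95% interval for each gene, in total RNA (left) and polysomal RNA (right), with 3 control cultures (circles) and without control culture 3 (squares). Without that culture 9 of 10 and 10 of 10 genes lie below 0.

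The 10 related lists, with 155 genes in all, held no gene past the threshold for RBMX in either fraction. In total RNA 15 of the 155 genes (9.68%) had an unadjusted p under 0.05, beside 18.8% of all tested genes, and in polysomal RNA 8 (5.16%) beside 11.7%. Median log2 fold changes in total and polysomal RNA were 0.12 and 0.08 for the chromosomal passenger complex and Aurora activators, 0.02 and 0.10 for the checkpoint partners, 0.02 and 0.06 for other mitotic kinases, and 0.06 and 0.09 for the cyclins and CDK1 regulators. They were 0.0039 and 0.0034 for the anaphase-promoting complex, -0.07 and -0.04 for the kinetochore, 0.07 and 0.06 for kinesins and midzone proteins, -0.07 and -0.06 for the G2/M transcription factors, 0.09 and 0.05 for proliferation markers and 0.16 and 0.12 for DNA replication genes. Among genes whose groups did not overlap, ARPP19, an inhibitor of the phosphatase that opposes CDK1, had log2 fold changes of -0.36 and -0.39 in total and polysomal RNA (limma, adjusted p = 0.192 and 0.403), and MASTL, the kinase that activates ARPP19, had 0.24 and 0.26 (0.25 and 0.425). CDKN1A, the CDK inhibitor p21, had 0.22 in total RNA (adjusted p = 0.176), KIF14, a kinesin of cytokinesis, -0.22 (0.176), and CENPE, a kinetochore motor, -0.37 (0.205). Without control culture 3 there was again no gene past the threshold among the 155, and the medians of all lists but the anaphase-promoting complex in total RNA (0.04) were lower than with it, for example -0.10 and -0.18 for kinesins and midzone proteins.

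The polysomal level of a transcript was set against its total level. Both are FPKM scaled within their own library, so the difference is relative to the other RNAs and gives no share loaded with ribosomes. Small RNA genes held from 40.6% (control polysomal library 1) to 72.9% (control total library 3) of FPKM. None of the 10 genes passed in control cells (limma, adjusted p from 0.918 to 1, where 0.0818% of all tested genes passed) or in RBMX cells (0.310 to 0.915, where 1.34% passed), and 0 of 10 had an unadjusted p under 0.05 in either, beside 8.04% and 23.0% of all tested genes. The groups of every gene overlapped in both vectors, while they did not overlap for 14.9% and 30.8% of all tested genes. With the total and polysomal libraries of each culture taken as pairs over all 6 cultures, a fit chosen after seeing the data, again none passed, although 17.6% of all tested genes did.

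PLK1 and CDC20 were the genes with a higher polysomal than total level in all 6 cultures, a pattern of 16.0% of all tested genes. PLK1 was 0.02 to 0.22 higher on the log2 scale, with a mean difference of 0.10 (SE 0.04, unadjusted p = 0.0452 in limma, adjusted p = 0.121, and 0.776 without the pairing). Its 95% interval, 0.0029 to 0.20, was the 1 interval of the 10 genes that did not include 0. Of all tested genes, 38.6% had an unadjusted p under 0.05 in this paired limma fit. Without control culture 3 the interval of PLK1 was -0.022 to 0.21, which includes 0. CDC20 was 0.0029 to 0.14 higher, with a mean of 0.07 (SE 0.03, interval -0.014 to 0.16, adjusted p = 0.189 in limma), and after median-ratio rescaling it was higher in 5 of 6 cultures. At the other end, TTK was lower in polysomal RNA in 5 of 6 cultures, with a mean of -0.23 (SE 0.09, interval -0.46 to 0.0046, adjusted p = 0.135 in limma). CDK1 (-0.11), MAD2L1 (-0.08), AURKA (-0.05), BUB1 (-0.05), AURKB (-0.01), CCNB1 (0.04) and BUB1B (0.04) had intervals that include 0 as well.

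Most of the spread came from control culture 3 and RBMX culture 2. In control culture 3 the difference was -0.56 for TTK, -0.43 for CDK1, -0.33 for BUB1, -0.24 for AURKA, -0.21 for CCNB1 and -0.18 for MAD2L1. In RBMX culture 2 it was -0.49 for TTK, -0.48 for MAD2L1, -0.42 for CDK1 and -0.21 for AURKA, but 0.22 for PLK1. The median of the 10 genes was -0.19 and -0.07 in these cultures and between 0.02 and 0.11 in the other 4.

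**Figure D4:**
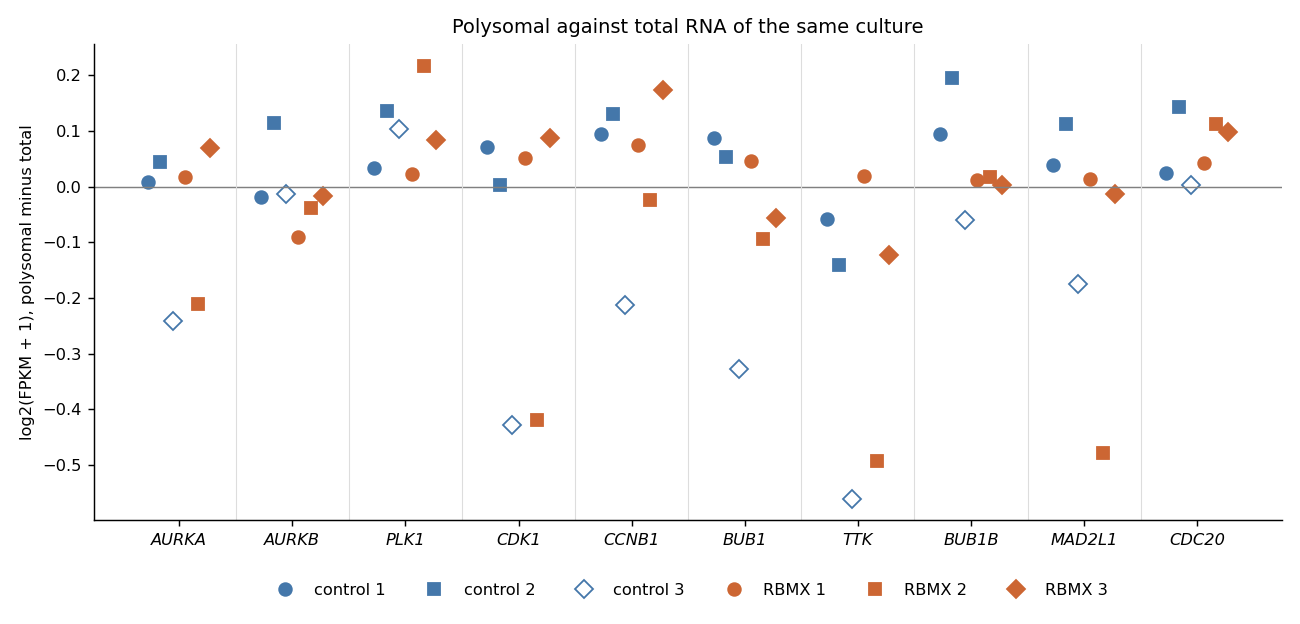
Polysomal minus total log2(FPKM + 1) of each gene (vertical axis) in the 6 cultures, blue for control and orange for RBMX cells, with control culture 3 as an open diamond. PLK1 and CDC20 lie above 0 in all 6 cultures, and control culture 3 and RBMX culture 2 are the lowest points for TTK, CDK1, AURKA and MAD2L1.

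The genes just named as lower in polysomal RNA of those cultures have transcripts of lower GC content than AURKB, PLK1 and CDC20. The longest coding transcripts of AURKB, PLK1 and CDC20 held 55.6%, 57.3% and 57.9% GC, and those of the other 7 genes from 37.0% for CDK1 to 46.6% for AURKA. In control culture 3 the median difference was -0.24 for these 7 genes and 0.0029 for the 3 of higher GC content, and in RBMX culture 2 it was -0.21 and 0.11. Single genes departed from this, AURKB lying at -0.014 and -0.039 in these cultures and BUB1B, of lower GC content, at -0.060 and 0.017. Elsewhere the medians of the 7 and the 3 genes were 0.072 and 0.025 in control culture 1 and 0.054 and 0.14 in control culture 2. They were 0.020 and 0.022 in RBMX culture 1 and 0.0033 and 0.084 in RBMX culture 3. Across 12501 genes, the polysomal minus total difference correlated with GC content at a Spearman rho of 0.69 in control culture 3 and 0.43 in RBMX culture 2, beside -0.08, 0.25, -0.05 and 0.0084 in control cultures 1 and 2 and RBMX cultures 1 and 3. The genes are not independent replicates, and the part of GC content in the difference was not tested.

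Whether RBMX changed the polysomal relative to the total level of these genes was tested as the difference of its effect between the fractions. The log2 differences, polysomal minus total, lay between -0.15 for MAD2L1 and 0.07 for CCNB1, and none passed (limma over 12 libraries, adjusted p = 1.00 for each, 0 of 10 with an unadjusted p under 0.05), where 0.0204% of all tested genes passed. This fit did not pair the total and polysomal libraries of a culture, and the SE of the 10 genes were 0.15 to 0.54. With the culture as a block the SE were 0.07 to 0.20, and again none passed. In the fit without pairing, leaving out control culture 3 gave a median of -0.10, with 8 of 10 below 0 and adjusted p of 1.

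In the paired comparison of polysomal with total RNA, 9 of the 155 genes of the related lists were higher and 11 lower in polysomal RNA past the threshold, 12.9% beside 17.6% of all tested genes. Among the higher ones were MKI67, the proliferation antigen Ki-67, at 0.42 (limma, adjusted p = 0.0466), TPR, a nuclear pore protein that binds the checkpoint, at 0.32 (0.0264), CENPF, a large kinetochore protein, at 0.32 (0.0360), and CIT, a cytokinesis kinase, at 0.25 (0.0432). KIF4A, a midzone kinesin, was at 0.17 (0.0300) and POLE, the leading strand polymerase, at 0.29 (0.0356). Among the lower ones were the anaphase-promoting complex subunits ANAPC16 at -0.47 (0.0307) and ANAPC13 at -0.35 (0.0448), the kinetochore subunit MIS12 at -0.46 (0.0251), NFYB, a subunit of the factor that binds CCAAT, at -0.33 (0.0304), and BORA, an activator of Aurora A, at -0.31 (0.0457). MAD2L1BP, which helps to take MAD2 off the checkpoint complex, was at -0.21 (0.0319). The cyclins and CDK1 regulators had 0 of 11 past the threshold in either direction. Without control culture 3, 7 of the 155 passed (4.52%), 5 higher and 2 lower, beside 7.03% of all tested genes, and of the genes named here TPR, CENPF and KIF4A still passed. Without the pairing 8 of the 155 passed (5.16%), beside 6.61% of all tested genes, among them TPR, CIT, MIS12, NFYB, BORA and MAD2L1BP.

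Some values carry an uncertainty from shared sequence. Transcripts in the annotation match AURKA (RAB3GAP2, 94.7% identity over 1538 bases, and AURKAP1, 94.9% over 1213 bases), CDC20 (CDC20P1, 96.3% over 1503 bases), MAD2L1 (AL132777.1, 97.7% over 618 bases) and PLK1 (AC104852.1, 90.8% over 606 bases), and how such reads were counted is not given in the sources used here. AURKAPS1, the AURKA pseudogene in the table, was at 1.78 to 2.92 FPKM, far below AURKA. PLK1 overlaps antisense exons of AC008870.3 and MAD2L1 those of AC108866.1, which cannot be separated if reads were counted without strand, and BUB1B shares an exon of the same strand with BUB1B-PAK6.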

How the data were processed

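The authors deposited 1 table of FPKM values for 25268 gene symbols in 12 libraries, each made from 500 ng of RNA with a TruSeq kit. The submitters' processing notes name CASAVA 1.8, TopHat2 2.0.13, Cufflinks 2.2.1, Cuffnorm and hg19, without roles, while the paper's methods describe other tools and hg38, so any scaling between libraries and the annotation behind the FPKM values are uncertain. The deposited values hold no depth. Groups came from the sample labels, and 0 columns were left unmatched. Replicate libraries of a group correlated with a Spearman rho of 0.924 to 0.953. The members and lists were chosen with earlier results of these data known.

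The analysis used log2(FPKM + 1), which understates the change of low genes. Genes were kept where FPKM averaged 0.5 or more over the libraries, and these 14676 were fitted with limma 3.58.1 (lmFit, eBayes with trend) in R 4.3.3. Benjamini-Hochberg adjustment ran over all of them, with a threshold of 0.05. RBMX was compared with control in the 6 libraries of each fraction, polysomal with total RNA in the 6 libraries of each vector and, with the culture as a block, in all 6 cultures, and the difference of the RBMX effect in 12 libraries. The fits were tested on simulated data with independent noise in each library and no small RNA genes. The simulation held no outlying culture and no deviations shared between fractions, so it does not cover these features of the data. Exact permutation tests were two-sided. Transcript matches of at least 200 bases at 90% identity were found with BLAST 2.17.0, and promoters came from RefSeq. Python 3.11.15 and matplotlib 3.10.9 drew the figures.

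Named were all 10 members, RBMX and, from each list, at most 2 higher and 2 lower genes, taken by size of change where groups did not overlap, as well as the 5 genes of most similar profile. Total and polysomal libraries with the same number were paired because the extract protocol takes both from one gradient, although the treatment protocol mentions separate dishes. Without small RNA genes their deviations from the group means correlated at 0.62, 0.72 and 0.85 in control and 0.23, 0.03 and 0.69 in RBMX cultures 1 to 3. Over all 14676 tested genes these correlations were only 0.08, 0.10 and 0.31 in control and 0.0018, 0.02 and 0.09 in RBMX cultures. Over the 10 members alone they were -0.29, -0.20 and 0.74 in the RBMX cultures. Replicate numbers were not used to pair control with RBMX cultures in the main fits. The alternatives were other pseudocounts and filters, median-ratio and quantile scaling, no trend, blocks, 12 libraries in one fit, small RNA genes left out, and each replicate left out.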

Additional observations from a re-analysis of the deposited data

How the results depend on the processing

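None of the 10 genes passed the threshold in any comparison under any alternative run. Over these, the adjusted p in limma spanned 0.133 to 1 for RBMX in total RNA, 0.0811 to 1 for RBMX in polysomal RNA, 0.136 to 1 and 0.130 to 1 for polysomal against total RNA in control and RBMX cells, and 0.0601 to 0.997 over all 6 cultures. Of 750 recomputed log2 fold changes of single genes, which leave out the difference of the RBMX effect, 63 changed sign. Of 90 recomputed medians over the 10 genes, which include it, 14 did. The FPKM values carry no depth, so no limit of detection can be given, and 3 cultures per group limit every interval.

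For RBMX against control, leaving out 1 culture at a time gave log2 fold changes in total RNA of -0.14 to 0.11 for AURKA, -0.24 to 0.14 for PLK1, -0.011 to 0.31 for BUB1, -0.036 to 0.19 for TTK, -0.12 to 0.14 for CDK1, -0.058 to 0.065 for BUB1B, -0.21 to 0.28 for CDC20 and -0.19 to 0.35 for CCNB1. In polysomal RNA the ranges were -0.21 to 0.17 for AURKA, -0.057 to 0.19 for AURKB, -0.22 to 0.13 for PLK1, -0.12 to 0.41 for BUB1, -0.14 to 0.32 for TTK, -0.25 to 0.26 for CDK1, -0.19 to 0.020 for BUB1B, -0.21 to 0.31 for CDC20 and -0.23 to 0.48 for CCNB1, and -0.21 to 0.22 for the median of the 10 genes. Each lowest value was the one without control culture 3, and the fit of all 12 libraries without that culture gave the same log2 fold changes. Under quantile normalization AURKA was at -0.040, CDK1 at -0.058, BUB1B at -0.030 in total RNA and PLK1 at -0.015 in polysomal RNA. Median-ratio rescaling put PLK1 at 0.0089 in total RNA, and 0.0087 without small RNA genes. The cause of these changes was not tested.

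For polysomal against total RNA, leaving out 1 culture gave -0.12 to 0.027 for AURKA, -0.016 to 0.051 for AURKB, -0.14 to 0.071 for BUB1, -0.21 to 0.037 for CDK1, -0.068 to 0.076 for MAD2L1 and -0.058 to 0.11 for CCNB1 in control cells, and -0.097 to 0.044 for AURKA and -0.18 to 0.069 for CDK1 in RBMX cells. Over all 6 cultures AURKB ranged from -0.033 to 0.00097 and BUB1 from -0.086 to 0.018. Quantile normalization gave 0.032 for MAD2L1 in control cells, 0.0057 for AURKA, 0.067 for AURKB, 0.013 for BUB1 and 0.0038 for CDK1 in RBMX cells, and 0.058 for AURKB over all 6 cultures.

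The count of all genes past the threshold was 24 (13 to 400) for RBMX in total and 7 (2 to 126) in polysomal RNA, 12 (6 to 199) and 196 (4 to 469) for polysomal against total RNA in control and RBMX cells, 3 (0 to 7) for the difference of the RBMX effect and 2584 (259 to 3748) over all 6 cultures. With the replicate block these counts were 13, 3, 6, 4 and 5 in the first 5 comparisons, and without the replicate block the last was 970. Neither changed a call among the 10 genes. Deviations of control and RBMX cultures with the same replicate number correlated at -0.07 to 0.03, which does not settle whether such cultures were handled together.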
